A study of Caenorhabditis elegans with 6 samples.

Results

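The lysosomal acid lipases of *C. elegans*, *lipl-1* to *lipl-8*, and the genes of 2 transcription factors that control them, *hlh-30* and *mxl-3*, were followed in worms treated with pRJ-Fr.5. The members were taken by gene symbol, and they comprised 10 of the 24733 genes named on the array, with 12 of its 43603 probes. The family itself was chosen by the log2 difference of *lipl-1* between pRJ-Fr.5 and control, which was known to be high, so that the differences of its members are given as a description, without p-values. pRJ-Fr.5 is a fraction of protease-treated royal jelly. All worms were wild-type N2 hermaphrodites on UV-irradiated *E. coli* OP50, and whole bodies of many pooled worms were used for each RNA sample. Control worms received none of the fraction, and the others received it for 24 h, starting as L4 larvae, which are in their final larval stage. The dose is written as 25 mg/ml in the sample labels and as 25 µg/ml in the published protocol, and which of them was used is not settled here. Each group had 3 samples, each on its own single-color array. Nothing in the labels says whether the samples of a group came from separate cultures, so that the spread between them may be partly technical.

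Lysosomal acid lipases cleave triglycerides and other esters that reach the lysosome from lipid droplets. In *C. elegans* they act mainly in the intestine, which is the fat store of the worm. MXL-3, a basic helix-loop-helix protein of the MAX family, represses lipase genes such as *lipl-1* and *lipl-3* in fed worms, and HLH-30, the worm ortholog of mammalian TFEB, activates lipases and autophagy genes when food is removed. LIPL-4 is known from longevity work, where its overproduction in the intestine extends lifespan through a lipid signal that LBP-8 carries from the lysosome to nuclear receptors. No probe, protein or promoter sequence is shown here.

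A probe was kept when its signal was well above background on all 6 arrays, which left 16047 genes, including 9 of the 10 members. The exception was *lipl-8*, whose single probe was above background on 0 of 6 arrays, so that no level can be given for it. Control replicate 3 had the poorest background, with 63.6% of probes above it, against 75.3% to 79.2% on the other 5 arrays. It was the only reason for leaving out 4704 probes, none of them a member's, since the left-out probes of *lipl-8* and *hlh-30* were at background on at least 3 arrays. Among the pRJ-Fr.5 arrays, replicate 1 most often lay nearest to the mean of the control arrays, for 49.1% of all genes and for 6 of the 9 members. Of 139 genes that were at least 2-fold above the control mean in both pRJ-Fr.5 replicates 2 and 3, replicate 1 lay within the range of the control arrays for 58 (41.7%). These 139 genes included *lipl-1*, *lipl-2* and *lipl-3*. Of 156 genes at least 2-fold below it in both, replicate 1 lay within the control range for 3, and none of these 156 was a member.

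The clearest feature of the family was that *lipl-1*, *lipl-2* and *lipl-3* had high signals in pRJ-Fr.5 replicates 2 and 3 and levels close to control in pRJ-Fr.5 replicate 1. All values below are log2 signals relative to the 75th percentile of the array, and they compare arrays, not genes. The lipase gene *lipl-1* (*F54F3.3*) read -2.18, -2.59 and -3.09 in control replicates 1, 2 and 3. With pRJ-Fr.5 it read -2.11, -0.51 and -0.21. Replicate 1 therefore lay only just above the highest control array, while replicates 2 and 3 were 4.31 and 5.30 times the control mean. The control mean was -2.62 ± 0.45 (SD, n = 3) and the pRJ-Fr.5 mean -0.95 ± 1.02 (SD, n = 3), so that the log2 difference was 1.67 (standard error 0.50, 3.19-fold).

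Its relative *lipl-2* (*F46B6.8*) read -0.40, -0.77 and -1.04 in control worms and -0.42, 1.04 and 1.57 with pRJ-Fr.5. The groups overlapped, because pRJ-Fr.5 replicate 1 was just below control replicate 1. The mean was -0.74 ± 0.32 (SD, n = 3) without the fraction and 0.73 ± 1.03 (SD, n = 3) with it, for a log2 difference of 1.47 (standard error 0.48, 2.76-fold). The third gene, *lipl-3* (*R11G11.14*), read 0.11, -0.24 and -0.55 in control worms and -0.05, 1.03 and 2.05 with pRJ-Fr.5. Here pRJ-Fr.5 replicate 1 fell between 2 control arrays, and replicates 2 and 3 were 2.38 and 4.83 times the control mean. The log2 difference was 1.23 (standard error 0.49, 2.35-fold), from -0.23 ± 0.33 (SD, n = 3) to 1.01 ± 1.05 (SD, n = 3). Among the differences of all 16047 genes, counted from the highest, *lipl-1*, *lipl-2* and *lipl-3* held ranks 20, 31 and 50.

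**Figure D1:**
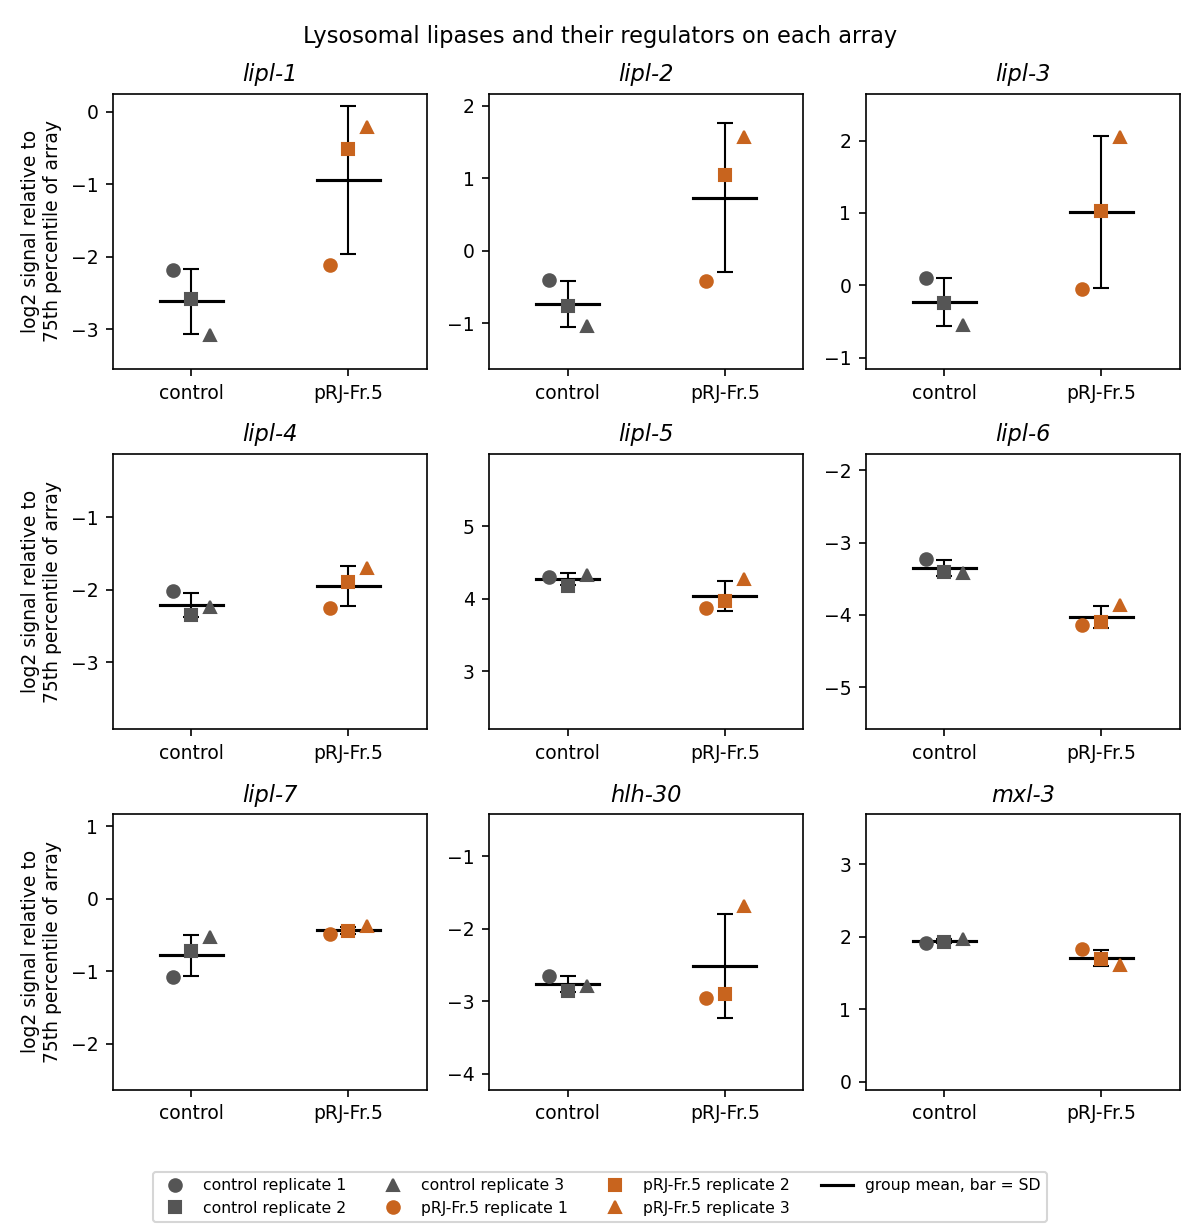
Log2 signal relative to the 75th percentile of the array (vertical axes, each spanning the same width) for the 9 members above background, by group (horizontal axes). Symbols are single arrays, horizontal lines are group means and bars are SD (n = 3); pRJ-Fr.5 replicate 1 lies by the control arrays for lipl-1, lipl-2 and lipl-3, and replicates 2 and 3 lie well above them.

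These 3 lipases were also the most variable members within each group. The SD among pRJ-Fr.5 arrays was 1.02, 1.03 and 1.05 for *lipl-1*, *lipl-2* and *lipl-3*, against a median of 0.098 over all genes, and 99.8% of genes had an SD no larger than each of them. Among control arrays, replicate 1 was the highest and replicate 3 the lowest for all 3 genes, with ranges of 0.90, 0.64 and 0.66. For comparison, the whole control range of *mxl-3* was 0.047. The arrays lay on 2 slides, with control and pRJ-Fr.5 replicates 1 and 2 on slide 1 and replicate 3 of both groups on slide 2. Within slide 1, the log2 differences of *lipl-1*, *lipl-2* and *lipl-3* were 1.07, 0.89 and 0.55, and within slide 2, with 1 array a group, they were 2.87, 2.61 and 2.60. The direction of the means was the same on both slides, which is a description, since the family was chosen by this difference. On slide 1, pRJ-Fr.5 replicate 1 was near control levels. On slide 2, the only control array was replicate 3, the lowest for these genes and the one with the poorest background.

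The other lipases behaved differently. The lipase gene *lipl-6* (*Y57E12B.3*) was lower with pRJ-Fr.5 on every array, and its arrays were close to one another. It read -3.22, -3.41 and -3.42 in control worms and -4.13, -4.097 and -3.86 with pRJ-Fr.5. It averaged -3.35 ± 0.11 (SD, n = 3) in control worms against -4.03 ± 0.15 (SD, n = 3), and the log2 difference was -0.68 (standard error 0.10, 0.625-fold). The log2 difference was -0.80 on slide 1 and -0.44 on slide 2, and pRJ-Fr.5 replicate 1 showed the lowest level.

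The longevity lipase *lipl-4* (*K04A8.5*) read -2.02, -2.35 and -2.24 in control worms and -2.25, -1.89 and -1.70 with pRJ-Fr.5. Replicates 2 and 3 were again above all control arrays and replicate 1 was not, but the log2 difference was only 0.26 (standard error 0.15). The gene *lipl-5* (*ZK6.7*) read 4.30, 4.18 and 4.33 in control worms and 3.87, 3.96 and 4.27 with pRJ-Fr.5, a log2 difference of -0.24 (standard error 0.11). Its groups overlapped through pRJ-Fr.5 replicate 3.

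The gene *lipl-7* (*F01G10.7*) had 2 probes, and the mean of both was -1.08, -0.71 and -0.53 in control worms and -0.48, -0.44 and -0.38 with pRJ-Fr.5. Every pRJ-Fr.5 array was above every control array, although control replicate 3 was close to pRJ-Fr.5 replicate 1, and the log2 difference was 0.34 (standard error 0.14). The probes differed in steadiness. One read -2.27, -1.52 and -1.24 in control worms and -1.22, -1.19 and -1.32 with pRJ-Fr.5, and its groups overlapped. The other read 0.11, 0.09 and 0.18 and then 0.26, 0.31 and 0.57, with a log2 difference of 0.25 and no overlap.

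The repressor gene *mxl-3* (*F46G10.6*) was slightly lower with pRJ-Fr.5, and its control arrays were nearly equal. It read 1.92, 1.93 and 1.97 in control worms and 1.83, 1.69 and 1.61 with pRJ-Fr.5. No array of one group reached the other. Among pRJ-Fr.5 arrays, replicate 1 was the nearest to control for *mxl-3*, as it was for 49.1% of all genes. The gene averaged 1.94 ± 0.03 (SD, n = 3) in control worms against 1.71 ± 0.11 (SD, n = 3), and the log2 difference was -0.23 (standard error 0.07, 0.855-fold). Within slide 1 it was -0.16, and within slide 2 it was -0.35.

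The activator gene *hlh-30* (*W02C12.3*) was high on 1 array only. Its kept probe, assigned by the array to transcript g.1, read -2.65, -2.87 and -2.79 in control worms and -2.95, -2.90 and -1.69 with pRJ-Fr.5. Replicates 1 and 2 were thus below every control array and replicate 3 was 2.12 times the control mean. The log2 difference of 0.25 (standard error 0.33) rested on that array, and without pRJ-Fr.5 replicate 3 it was -0.16. The 2nd probe, assigned to transcript c, was above background on 1 control array and 2 pRJ-Fr.5 arrays, so that its arrays are not compared. On pRJ-Fr.5 replicate 2, where *lipl-1*, *lipl-2* and *lipl-3* were high, the kept *hlh-30* probe read -2.90, against -2.87 on the lowest control array. That is 1 array, and the values are of RNA, not of the protein. Any link of *hlh-30* or *mxl-3* to the lipase values was not tested.

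**Figure D2:**
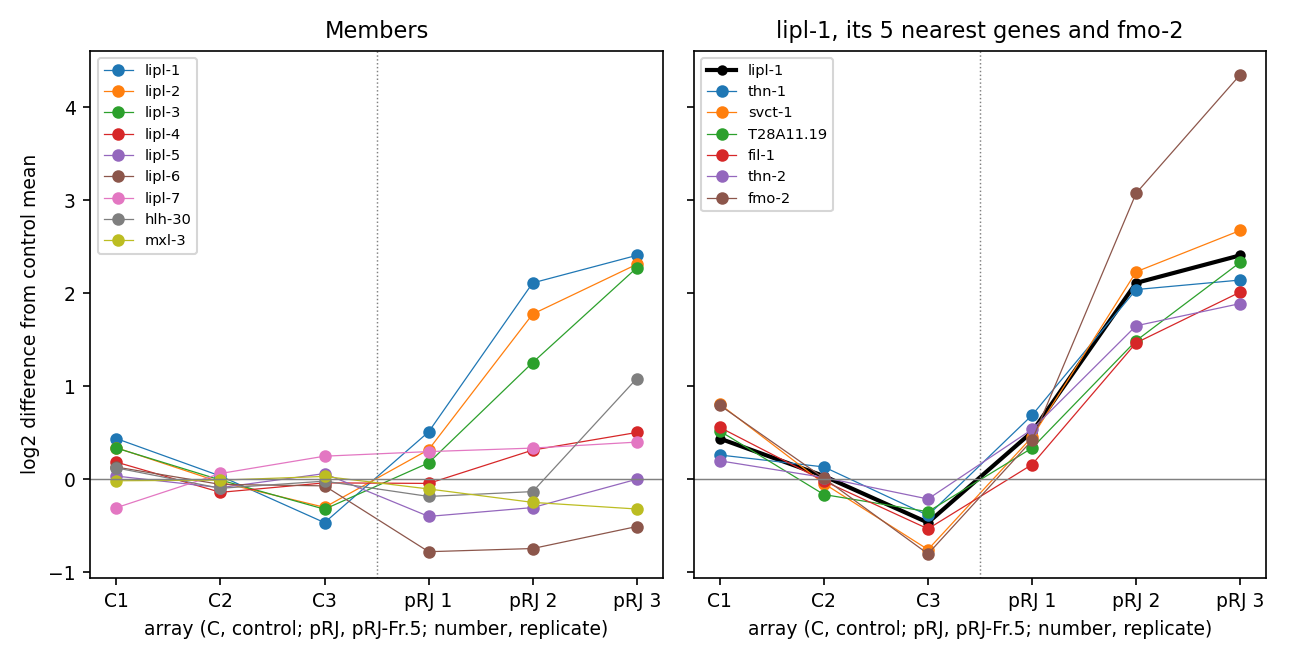
Log2 difference from the control mean (vertical axis) on each of the 6 arrays (horizontal axis) for the 9 members (left) and for lipl-1 with its 5 nearest genes and fmo-2 (right). Each colored line joins the values of 1 gene and carries no order of the replicates; fmo-2 lies above the other genes on the right on pRJ-Fr.5 replicates 2 and 3, and the 5 genes by lipl-1 were picked for their nearness to it.

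In the fit of pRJ-Fr.5 against control over all 16047 genes, made with limma, which borrows information on the spread from all genes, 29% of genes passed an adjusted p of 0.05 (9.88% higher and 19.1% lower). Of the 9 members tested, 2 passed it, *lipl-1* higher and *lipl-6* lower. Groups were fully separated for 4 members (*lipl-1*, *lipl-6*, *lipl-7* and *mxl-3*), as they were for 48.9% of all genes. At least 1.8-fold higher means were found for 3 members, against 1.15% of all genes, and at least 1.8-fold lower means for 0 members, against 2.32% of all genes. The median log2 difference was 0.26 over the 9 members and 0.03 over all genes. These counts come from the contrast with which the family was picked, and nothing is read from them. With the 75th percentile of kept probes as the scale, both called members were lower (*lipl-6* and *mxl-3*), and with normexp, a model of the local background, *lipl-2* joined *lipl-1* and *lipl-6*. The call of *lipl-6* was kept in all 16 other limma fits and that of *lipl-1* in 6 of 16. Leaving out any of control replicates 1, 2 and 3 or pRJ-Fr.5 replicates 2 and 3 ended the call of *lipl-1*, with log2 differences of 1.31 to 1.89. Without pRJ-Fr.5 replicate 1, 6 members passed: *lipl-1* (2.26), *lipl-2* (2.04), *lipl-3* (1.76) and *lipl-4* (0.41) higher, and *lipl-6* (-0.63) and *mxl-3* (-0.29) lower. In that fit, 13% of all genes were called higher and 20.7% lower.

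**Figure D3:**
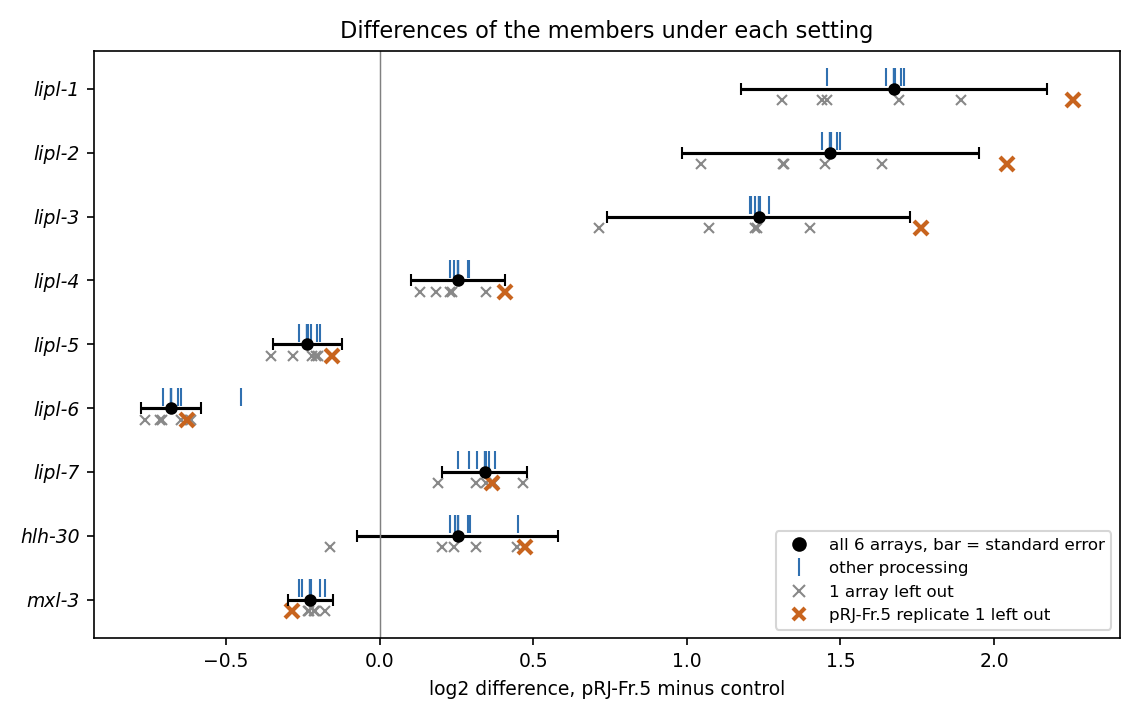
Log2 difference of pRJ-Fr.5 minus control (horizontal axis) for each member (vertical axis) with all 6 arrays (black, bar = standard error), under other processing (blue ticks) and with 1 array left out (crosses). Leaving out pRJ-Fr.5 replicate 1 (orange) gave the highest value for lipl-1 to lipl-4, and hlh-30 alone has a cross below 0 against a mean above it.

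The genes with the most similar course to *lipl-1* were found by the Euclidean distance between mean-centered log2 values over the 6 arrays. *lipl-2* was nearer to *lipl-1* (distance 0.37) than any other gene, and 7 genes that are not members were nearer than *lipl-3* (0.78). The 5 nearest were *thn-1* (0.39), *svct-1* (0.55), *T28A11.19* (0.60), *fil-1* (0.63) and *thn-2* (0.67). *thn-1* and *thn-2* encode thaumatin-family proteins, a class linked to defense, and *fil-1* is named as a fasting-induced lipase. Their log2 differences were 1.62, 1.36 and 1.21, in that order, and all 5 were lowest among pRJ-Fr.5 arrays in replicate 1. Both traits follow from the choice of these genes by their nearness to *lipl-1* on the same arrays, so nothing is read from them. The other members lay at larger distances, from 2.10 for *lipl-4* to 3.204 for *lipl-6*. Genes that are not members and were nearer numbered 1114 for *lipl-4*, 1213 for *hlh-30* and 13847 for *lipl-6*. The distance also grows with a difference in the size of a change, not only in its shape.

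The immediate neighbors of these genes on the chromosome, by their order in the RefSeq annotation, had a value in 14 of 20 cases. Among those 14, 6 were called lower and 0 higher, where 19.1% and 9.88% of all genes were. The neighbors of *lipl-2* had log2 differences of 0.17 (*ztf-7*) and 0.07 (*F46B6.9*), neither past the threshold. Beside *lipl-1*, *nid-1* was lower (-0.37, adjusted p = 0.0244 from limma), and *dhrs-4*, named for a short-chain dehydrogenase, had a difference of 1.45 that did not pass (adjusted p = 0.21 from limma). Both neighbors of *lipl-3* had no value above background on all arrays. The other called neighbors were *twk-10* beside *lipl-4* (-0.63), *ZK6.6* beside *lipl-5* (-0.61), *unc-68* beside *lipl-6* (-0.30), *Y50E8A.6* beside *lipl-8* (-0.86) and *F35F11.2* beside *hlh-30* (-0.52).

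Lipases outside the lysosomal family differed in both directions, with higher means for 7 and lower means for 8. Of 15 tested genes of the *lips* group, the lipid droplet lipases and the *fil* genes, 1 was called higher and 4 lower, where 9.88% and 19.1% of all genes were, with a median log2 difference of -0.20. The largest decreases were those of *lips-9* (-1.22, standard error 0.11), *lips-3* (-1.04, standard error 0.06) and *lips-7* (-0.91, standard error 0.11), with adjusted p of 0.00203, 0.00203 and 0.00222 from limma. For *lips-3*, the control arrays read 0.11, 0.18 and 0.17 and the pRJ-Fr.5 arrays -0.86, -0.86 and -0.96, so that replicate 1 was as low as the others. This differed from the course of *lipl-1*. The adipose triglyceride lipase gene *atgl-1* was slightly higher (0.23, standard error 0.06, adjusted p = 0.0376 from limma), and the hormone-sensitive lipase gene *hosl-1* had a difference of 0.01 (adjusted p = 0.945 from limma). The gene *fil-1* read -3.02, -3.59 and -4.11 in control worms and -3.42, -2.11 and -1.56 with pRJ-Fr.5 (adjusted p = 0.107 from limma).

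Some genes known to respond to fasting were higher with pRJ-Fr.5. Of 10 tested, 4 were called higher and 0 lower, where 9.88% and 19.1% of all genes were, and the median log2 difference was 0.32. The count was 2 with the 75th percentile of kept probes and 0 in the methods' t-test. These were *cpt-3*, a carnitine palmitoyltransferase (1.23, adjusted p = 0.0401), *acs-2*, an acyl-CoA synthetase of mitochondrial fat oxidation (0.85, adjusted p = 0.0283), *icl-1*, the glyoxylate cycle enzyme (0.49, adjusted p = 0.0236), and *acs-11* (0.47, adjusted p = 0.0408), all from limma. All 4 were lowest among the pRJ-Fr.5 arrays in replicate 1 and highest in replicate 3. Over all genes, replicate 1 lay nearest to the control mean for 49.1% and replicate 3 farthest from it for 48.2%. The flavin-containing monooxygenase gene *fmo-2*, named here after its values were seen, had the highest mean difference of all 16047 genes (2.61, standard error 0.96, 6.12-fold) without passing the threshold (adjusted p = 0.0839 from limma). It read -2.09, -2.87 and -3.68 in control worms and -2.46, 0.19 and 1.47 with pRJ-Fr.5. The desaturase gene *fat-7*, which falls on fasting in this species, had a difference of -0.74 (adjusted p = 0.0699 from limma). The remaining genes of the list differed little and did not pass. They were *hacd-1* (0.17), *ech-9* (0.04), *acdh-1* (-0.08) and *ech-6* (-0.19). Without each of control replicates 1, 2 and 3 the list had 1, 0 and 1 genes called, and without pRJ-Fr.5 replicates 1, 2 and 3 it had 6 (5 higher and 1 lower), 0 and 2.

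Autophagy genes, a class of HLH-30 targets, had slightly higher means with pRJ-Fr.5 for 25 of 26 tested, against 8659 of all 16047 genes. Any link of these values to *hlh-30* was not tested. The median log2 difference was 0.28, against 0.03 over all genes, and 15 genes were called higher and 0 lower, where 9.88% of all genes were called higher. The largest differences among those called were those of *epg-2*, an adaptor of the autophagic breakdown of aggregates (0.71), *atg-16.2* (0.47), *epg-9* (0.40) and *lgg-1*, the ubiquitin-like protein on autophagosome membranes (0.38), with adjusted p of 0.00603, 0.0155, 0.00722 and 0.018 from limma. *lgg-1* read 3.59, 3.57 and 3.50 in control worms and 3.78, 4.07 and 3.96 with pRJ-Fr.5, so that replicate 1 was above every control array, unlike for *lipl-2* and *lipl-3*. The count differed with the array removed. Leaving out control replicates 1, 2 and 3 in turn gave 7, 4 and 6 calls, and leaving out pRJ-Fr.5 replicates 1, 2 and 3 gave 14, 3 and 12. *atg-16.2* lost its call without control replicate 2 or 3 or pRJ-Fr.5 replicate 2, and *lgg-1* without any control replicate or pRJ-Fr.5 replicate 2. The calls of *epg-2* and *epg-9* were kept in all 17 alternatives.

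Genes of the lysosome itself did not share a direction. Of 30 lysosomal membrane and hydrolase genes, 7 were called higher and 6 lower (5 and 7 with the 75th percentile of kept probes), where 9.88% and 19.1% of all genes were, with a median log2 difference of 0.11. The acid sphingomyelinase gene *asm-3* had a log2 difference of 1.32 (adjusted p = 0.0278 from limma), which was 0.71 with normexp. Its signal was dim, at -6.19, -5.05 and -5.36 in control worms and -4.69, -4.16 and -3.79 with pRJ-Fr.5. The acid ceramidase gene *asah-1* had a log2 difference of 0.61 (adjusted p = 0.0472 from limma). The largest decreases were those of *pcp-2*, named for a prolyl carboxypeptidase (-1.06, adjusted p = 0.0168 from limma), and *cln-3.1*, an ortholog of a human Batten disease gene (-0.62, adjusted p = 0.0299 from limma). These 4 calls were lost without some arrays, each without control replicate 3 and without pRJ-Fr.5 replicate 2 among others, and the count of 13 was 2, 4 and 4 without control replicates 1, 2 and 3 and 17, 2 and 4 without pRJ-Fr.5 replicates 1, 2 and 3. Of the 21 subunits and accessory proteins of the vacuolar ATPase, the pump that acidifies the lysosome, 19 had lower means, against 7388 of all 16047 genes. Of the 21, 1 was called lower, *vha-20* (-0.35, adjusted p = 0.04 from limma), where 19.1% of all genes were. The median log2 difference was -0.16. Without pRJ-Fr.5 replicate 1 the count was 10, in a fit that called 20.7% of all genes lower. Without any other single array the count was 0. It was 5 with quantile normalization, 4 with the 75th percentile of kept probes and 0 with a shift to the median.

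**Figure D4:**
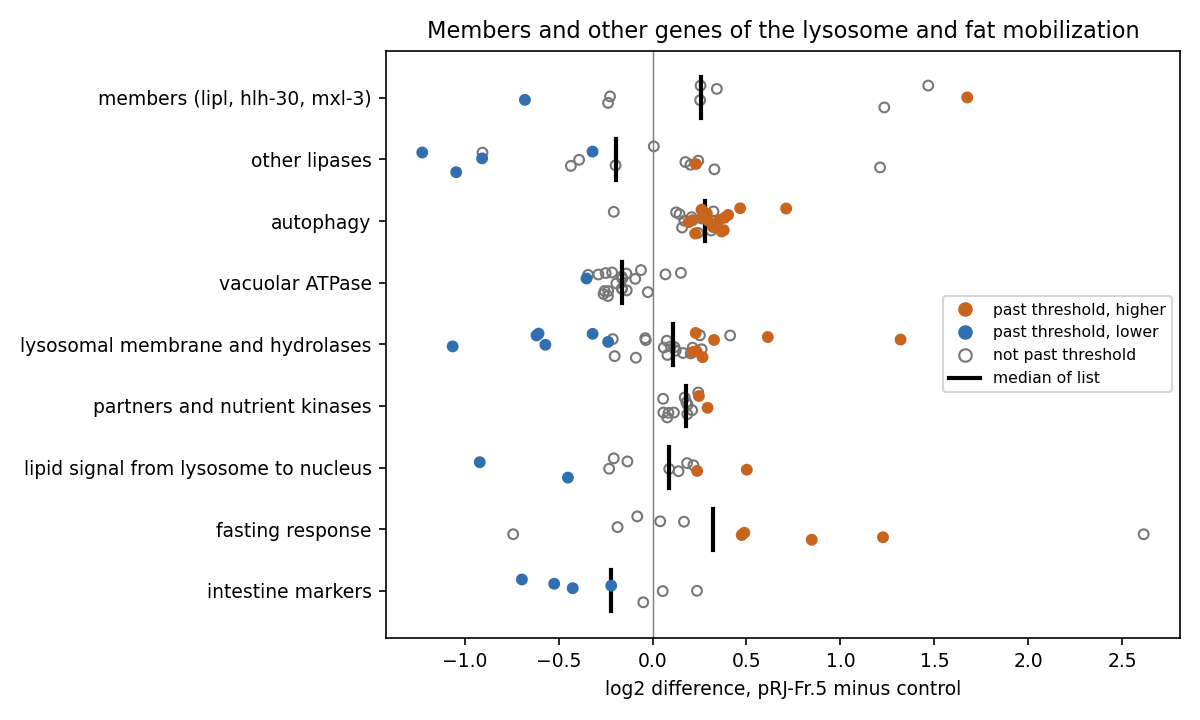
Log2 difference of pRJ-Fr.5 minus control (horizontal axis) for the 9 members, 7 lists of related genes and intestine markers (rows). Each point is 1 gene, filled where limma called it (orange higher, blue lower), and the black bar is the median of the list. Autophagy genes lie mostly to the right of 0 and the vacuolar ATPase mostly to the left.

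The binding partners of the MAX family and the nutrient kinases differed little. All 13 had differences above 0, from 0.06 to 0.29, as had 8659 of all 16047 genes. Of the 13, 2 were called higher, where 9.88% of all genes were. They were *rict-1* of the TOR complex (0.29, adjusted p = 0.0225 from limma) and the folliculin gene *flcn-1* (0.25, adjusted p = 0.04 from limma). The count was 5 without pRJ-Fr.5 replicate 1, in a fit that called 13% of all genes higher. It was 1 without control replicate 1 or pRJ-Fr.5 replicate 3, and 0 without any other single array. In the list of genes around the lipid signal of *lipl-4*, the lipid carrier gene *lbp-8* was lower (-0.92, standard error 0.17, adjusted p = 0.00882 from limma). It read -2.60, -2.26 and -2.26 in control worms and -2.93, -3.42 and -3.52 with pRJ-Fr.5, and its call was kept in 16 of 17 alternatives. *daf-9*, which makes steroid hormones, was also lower (-0.45, adjusted p = 0.0115 from limma). Of the 11 genes of this list, 2 were called higher and 2 lower, where 9.88% and 19.1% of all genes were, with a median of 0.09. With the 75th percentile of kept probes or a shift to the median, the counts were 1 and 2. The regulator genes *pha-4* (0.50, adjusted p = 0.049) and *nhr-13* (0.24, adjusted p = 0.0316) were called higher in limma. *pha-4* lost the call without any array other than pRJ-Fr.5 replicate 1, and *nhr-13* without any array other than pRJ-Fr.5 replicate 3.

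Because RNA came from whole worms, less intestinal RNA per worm and lower expression in the intestine cannot be told apart. Of 7 intestine markers, 4 were called lower (*pept-1*, *act-5*, *pho-1* and *ifb-2*, from -0.69 to -0.22) and 0 higher, where 19.1% and 9.88% of all genes were. The other 3 did not pass. These were the intestinal regulator genes *elt-2* (-0.05, adjusted p = 0.591 from limma) and *elt-7* (0.24, adjusted p = 0.0515 from limma), the latter with every pRJ-Fr.5 array above every control array, and the esterase gene *ges-1* (0.05, adjusted p = 0.604 from limma). The mean level of the list lay between 1.51 and 1.60 on control arrays and was 1.42, 1.28 and 1.24 on pRJ-Fr.5 replicates 1, 2 and 3. None of these markers was at background. Of 4 hypodermis markers, genes of the skin and cuticle, *rol-6* (-1.20) and *bli-1* (-1.60) were called lower, and *dpy-7* (-0.42, adjusted p = 0.132 from limma; 0.02 within slide 2) and *col-19* (-0.06, adjusted p = 0.552 from limma) did not pass. The mean levels of this list were 1.39 to 1.49 on control arrays and 0.47 to 0.73 on pRJ-Fr.5 arrays. Of 4 germline, 4 neuron and 4 body wall muscle markers, 0 were called, where 29% of all genes were called in either direction. With 4 genes a list, counts of 0 and 2 say little. The part of these shifts in the lipase values was not tested.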

How the data were processed

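Single-color arrays of 3 control and 3 pRJ-Fr.5 samples were analyzed. The authors deposited spot intensity from Agilent Feature Extraction 10.7.1.1, with background subtracted on each array and no scaling across arrays. A deposited series table gives, as a linear ratio, every signal over its array's 75th percentile, which was checked from the values. No spot was saturated, and spots marked as outliers and control spots were left out. After replicate spots were averaged, values were put on the log2 scale and each array's 75th percentile was taken off. A gene was the mean of its kept probes. The fit used limma 3.58.1 (R 4.3.3) with no block, Benjamini-Hochberg adjustment over all genes and a threshold of 0.05; the test was tried on simulated data first. With 3 arrays a group, the smallest p an exact permutation test allows is 0.1. The number of arrays limits the precision. Symbols came from RefSeq (WBcel235) through sequence names for 34870 probes (80.0%). Coordinates are left out because the array annotation uses a different build. Cross-hybridization between related lipases was not tested, since no probe sequences were used here. The members, lists and tests were chosen with earlier results of these data known. Named genes were all members, at most 4 called genes of each list with the largest differences, and the 5 genes nearest to *lipl-1*. Other genes were named after their values were seen. These were *fmo-2*, *fat-7* and the other uncalled genes of the fasting list, *atgl-1*, *hosl-1*, the neighbors of members and the markers. The genes *lips-4*, *epg-1* and *tpp-1* had no matched probe under these names. Alternatives were normexp (offset 50, on the median spot signal), other scalings and filters, the series table, the probe of highest signal, the methods' t-test, blocks for replicate number and slide, each slide alone, and each array left out, with the filter then applied to the remaining arrays.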

Additional observations from a re-analysis of the deposited data

How the results depend on the processing

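The values of the 9 members were compared over 16 other limma fits each, 144 in all, and 143 moved by less than 1 SD of the replicates; the exception was *lipl-6* with the normexp correction (-0.45). Part of this was fixed in advance. Blocks leave a difference unchanged in this balanced design, and filter and probe settings cannot move a gene with 1 probe. The SD was also large for *lipl-1*, whose range of 1.31 to 2.26 counted as a smaller move. Values within each slide are not among the 144. Only *hlh-30* changed sign, without pRJ-Fr.5 replicate 3. For the 28 other genes named by rule, 321 of 476 values kept direction and side of the threshold, 150 lost the threshold, 5 newly passed it and 0 changed sign. The count of members past the threshold (2) was 1 without a filter on dim probes, with detection in all arrays of 1 group, in the methods' t-test, with the slide as a block and with the replicate number as a block, and it lay between 1 and 6 with each array left out, the highest without pRJ-Fr.5 replicate 1. The 44 of 126 pathway genes called became 9 without a filter, 27 in the methods' t-test and 20 with the replicate block, and ran from 10, with pRJ-Fr.5 replicate 2 left out, to 61, with pRJ-Fr.5 replicate 1 left out. Over all genes, 4650 were called, against 2657 without a filter, 3189 with the replicate block and 2741 to 5404 with each array left out. The autophagy count was 4 without a filter and 6 with the replicate block, and the fasting list had 0 and 2. Among the lipases outside the lysosome, 2 of 6 calls were higher with quantile normalization or with the 75th percentile of kept probes, and 3 of 7 with normexp. The replicate numbers were not taken as pairs, since same-numbered arrays had correlations of their deviations from the group means of -0.24, 0.05 and -0.03. The cause was not tested for any of these changes. Signal over background limits *lipl-8* and the 2nd probe of *hlh-30*, and 3 arrays a group limit the rest.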
